A study of Homo sapiens with 18 samples.

Results

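Hep3B is a human hepatoma cell line used as a hepatocyte model, and the comparison described here set its Resmetirom (RES) libraries against its untreated control (Con) libraries in polyadenylated RNA. The study held 18 RNA-seq libraries in 6 groups of 3, and the comparison took 6 of them, RES replicates 1 to 3 and Con replicates 1 to 3, by the title of each library. The group called Model, Hep3B cells given free fatty acids (FFA) to induce steatosis, was used to place each change. The 3 groups given fucoxanthin (FUCO) entered only the choice of genes tested, the normalization and the estimate of the spread. Con was the untreated control of the study. In the study's other experiments RES was given to cells that also received FFA, and if the same holds here, RES against Con compares cells given both agents with cells given neither. The title of these libraries says only RES, and no group labelled as RES without FFA was in the series. The FFA concentration, the dose of RES and the treatment time of these libraries are not given in the sources used here. All groups were cells of 1 hepatoma line, without the other cell types of the liver.

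Resmetirom is a liver-directed agonist of the thyroid hormone receptor THRβ, which is the main thyroid hormone receptor of hepatocytes and pairs with retinoid X receptors on DNA. In the liver, thyroid hormone signalling is known for raising fatty acid oxidation and mitochondrial turnover, for lowering circulating cholesterol and for inducing a set of direct target genes such as KLF9. Free fatty acids are themselves ligands of PPAR receptors, which control genes of fatty acid oxidation and storage.

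The Con libraries held 17968042 to 19631852 counts each, the model libraries 18317088 to 18994381 and the RES libraries 17346520 to 23083498, and 5.953% to 7.001% of counts came from mitochondrial genes in these 9 libraries. The 10 most abundant genes took 11.2% to 12.1% of counts in Con, 10.6% to 10.7% in the model and 8.30% to 8.93% with RES. Con replicate 1 stood apart from the other Con libraries. Its counts differed from those of replicates 2 and 3 by 15.5 and 13.2 times the sampling noise (chi-square per degree of freedom), against 2.30 between replicates 2 and 3, 2.99 to 3.75 within the model and 2.93 to 6.99 within RES. Where leaving it out changed a call of RES against Con for a gene described below, or moved its fold change by over 1.5-fold, the value without it is given as well. Levels below are in CPM, where each count was divided by its library total after TMM normalization. This correction assumes that most genes do not differ between libraries. Its factors were 0.933 to 0.945 in Con and 1.071 to 1.078 with RES, and small shifts described below depend on this scaling. Because the replicates are described only as biological replicates and the labels name no culture, p-values measure the spread between these libraries.

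The hepatocyte and hepatoma markers summed to 66410 to 74540 CPM in Con, to 55240 to 55820 CPM in the model and to 17260 to 17470 CPM with RES. All 13 of them were detected in every group, 11 were lower with RES and none was higher. These values are scaled within each library of 1 cell line, so they do not measure the number of cells. Why the markers were lower was not tested. Of the stellate cell and fibroblast markers, COL3A1 and ACTA2 were at 0 in all 9 libraries, and the 9 listed markers summed to 32.3 to 41.5 CPM in Con and 14.6 to 18.3 CPM with RES. Of the 6 tested, 2 were higher and 2 lower with RES. On the log2 scale COL1A2 rose by 2.23 (2.89 without Con replicate 1) and COL1A1 by 0.99, while PDGFRB fell by 3.96 and LUM by 0.77. The 10 macrophage markers summed to 2.98 to 4.57 CPM in Con and 11.1 to 13.04 CPM with RES, nearly all of it CD14, a lipopolysaccharide co-receptor that hepatocytes also make. CD14 lay at 3.53, 2.93 and 2.16 CPM in Con and at 12.6, 11.7 and 10.8 CPM with RES, whereas CD163, MARCO, VSIG4, C1QA and C1QB were at 0 in all 9 libraries. CLEC4F, the other macrophage marker tested, fell by 1.32 on the log2 scale (adjusted p = 0.041 by edgeR). Its fall was 0.96 without Con replicate 1 (adjusted p = 0.201), and the adjusted p with DESeq2 was 0.0731. Of the 7 endothelial markers, CDH5, KDR, LYVE1 and CLEC4G were at 0 in all 9 libraries, and the list summed to 0.299 to 1.04 CPM in Con and 0.746 to 1.21 CPM with RES. The 7 cholangiocyte markers summed to 803 to 881 CPM in Con and 743 to 783 CPM with RES, with KRT19 at 195, 219.8 and 228 CPM in Con and 92, 95 and 118 CPM with RES.

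More genes passed the thresholds between RES and Con than between the model and Con, and most of those of RES were lower. Of 14557 genes tested, 1934 (13.3%) were differentially expressed genes (DEGs) between RES and Con, defined by a Benjamini-Hochberg adjusted p under 0.05 in edgeR's quasi-likelihood test and an absolute log2 fold change over 1. Of these, 713 (4.9% of the genes tested) were higher and 1221 (8.39%) lower with RES. The model against Con gave 284 DEGs (1.95%), 179 (1.23%) higher and a smaller number (0.721%) lower, and RES against the model gave 1443 (9.91%), 436 (3.0%) higher and 1007 (6.92%) lower. By adjusted p alone, 8341 genes (57.3%) passed, and 4188 genes (28.8%) were higher and 4153 (28.5%) lower with RES than in Con, and these percentages are the background for the counts of list members below. For the model against Con the shares were 8.43% higher and 9.12% lower, and for RES against the model 24.4% higher and 25.1% lower. The median log2 fold change over all genes tested was 0.00, where the normalization tends to place it. In 9407 genes (64.6%) the 3 RES libraries did not overlap the 3 Con libraries. Leaving out Con replicate 1 gave 2034 DEGs of RES against Con.

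Among genes with a mean of at least 1 CPM whose Con and RES libraries did not overlap, the largest fall was that of CYP3A7, the cytochrome P450 of fetal liver. It lay at 11, 22.7 and 18.6 CPM in Con, at 3.24, 2.95 and 3.25 in the model and at 0.0808, 0.108 and 0.187 with RES. Con replicate 1 was the lowest of the Con libraries, and the levels stepped down from Con to the model to RES without overlap. Over the 3 libraries of each group this was 915 counts in Con and 8 with RES, a ratio of 141 (95% exact interval 71.3 to 328, counting error only). AFP, the fetal serum protein alpha-fetoprotein, fell by 5.65 on the log2 scale and is described with its gene family below. The sodium channel subunits SCN2B and SCN7A, the zinc finger gene ZNF512, the phosphatase inhibitor PPP1R1A, the endothelin receptor EDNRB, the matrix protein podocan (PODN), the small GTPase RND2, the long noncoding RNA LINC02532, the dicarboxylate transporter SLC13A2 and the thyroxine-binding globulin gene SERPINA7 completed the 12 largest falls. SCN2B held 28, 48 and 67 counts in Con and 2, 1 and 0 with RES, a ratio of 58.8 (19.7 to 288). LINC02532 lay at 29.7, 32.5 and 31.4 CPM in Con, at 34.2, 30.6 and 31.7 in the model and at 0.888, 1.08 and 1.96 with RES, so that its Con and model libraries overlapped and its RES libraries lay far below both.

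The largest rise was that of the metallothionein MT2A, followed by LCN2, which encodes the iron-scavenging acute phase protein lipocalin 2, and G0S2, an inhibitor of adipose triglyceride lipase. LCN2 lay at 0.0578, 0.418 and 0.162 CPM in Con, at 6.85, 4.06 and 6.66 in the model and at 9.49, 12.4 and 19.4 with RES, with no overlap between any of the groups. G0S2 held 1, 0 and 1 counts in Con and 51, 50 and 47 with RES, a ratio of 60.0 (16.3 to 500.0). The annexin ANXA1, the netrin receptor UNC5B, the noncoding RNA BCYRN1, the TNF receptor family member TNFRSF9, the nuclease gene ENDOD1, the lysosomal channel MCOLN2, the integrin subunit ITGA3, the stress-responsive gene NIBAN1 and the mitochondrial folate enzyme ALDH1L2 completed the 12 largest rises. UNC5B lay at 0.347, 0.597 and 0.595 CPM in Con, at 0.165, 0.501 and 0.217 in the model and at 10.1, 10.7 and 8.12 with RES (log2 fold change against Con 4.21, SE 0.27, adjusted p = 3.17e-12). Its RES libraries lay far above those of both other groups, which overlapped. NIBAN1 lay at 3.47, 4.36 and 4.06 CPM in Con, at 2.69, 2.95 and 3.57 in the model and at 38.4, 46.8 and 44.3 with RES, so that RES again stood far above the others. BCYRN1 derives from an Alu-related repeat and its reads are uncertain. Of all DEGs of RES against Con, 130 held 9 counts or fewer over the 3 libraries of a group, 54 of them higher and 76 lower with RES.

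**Figure D1:**
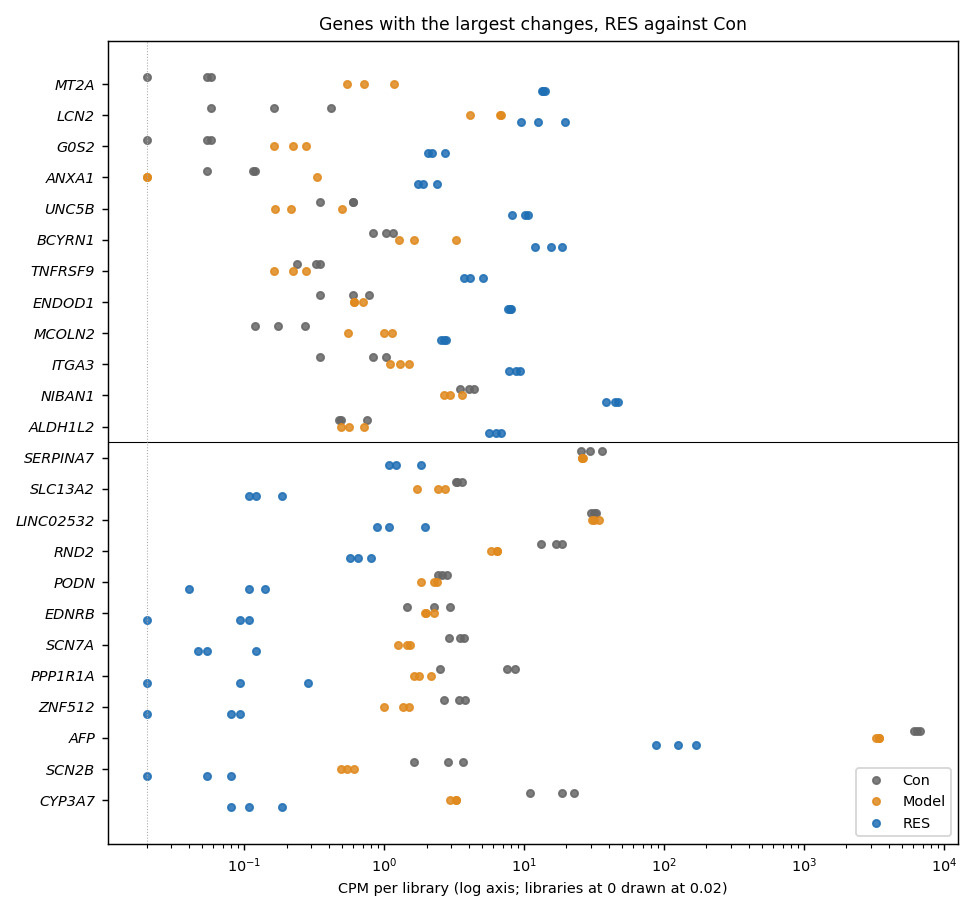
CPM of each library on a log axis for the 12 largest rises (upper rows) and the 12 largest falls (lower rows) of RES against Con, with 3 points each for Con, Model and RES and libraries at 0 drawn at 0.02. The RES points lie apart from the Con points in all 24 genes, and the model points lie between them in CYP3A7, SCN2B, RND2, AFP, LCN2 and MT2A, among others.

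Thyroid hormone receptor genes were expressed in all 9 libraries and moved little, apart from RXRA. THRB, the receptor that Resmetirom binds, lay at 34.9, 37 and 31.2 CPM in Con, at 37.2, 38.4 and 32.2 in the model and at 44.8, 43 and 36.9 with RES. The Con and RES libraries overlapped by RES replicate 3, and the log2 fold change was 0.28 (SE 0.09, adjusted p = 0.0141), which did not pass without Con replicate 3 (adjusted p = 0.101) or without RES replicate 1 (0.0845). THRA, the receptor that predominates in heart and muscle, was lower at 25.8, 26.3 and 25.1 CPM with RES against 39.4, 31.9 and 35.4 CPM in Con (−0.47, adjusted p = 0.000435), although its end overlaps NR1D1 on the other strand and the sources used here do not state whether counting used the strand. RXRA, the partner of thyroid hormone receptors, PPARs and LXRs, lay at 217, 212 and 202 CPM in Con, at 194, 179.7 and 184 in the model and at 89.8, 82.6 and 83.3 with RES. It was the 1 DEG among the 12 receptor, transporter and cofactor genes tested (−1.30, SE 0.10, adjusted p = 7.65e-11), of which 5 were higher and 4 lower with RES.

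Genes known to respond to thyroid hormone moved in both directions. Of 15 tested, 8 were higher and 3 lower with RES, and 6 of the higher and 1 of the lower were DEGs. KLF9, a transcription factor and a direct thyroid hormone target, lay at 6.7, 5.13 and 6 CPM in Con, at 9.32, 9.57 and 10.1 in the model and at 44.5, 42 and 37.6 with RES. The 3 groups did not overlap, and on the log2 scale RES exceeded Con by 2.80 (SE 0.11, adjusted p = 2.46e-16) and the model by 2.10 (adjusted p = 2.12e-14). ME1, the cytosolic malic enzyme that supplies NADPH, lay at 42.3, 34.5 and 32.9 CPM in Con, at 35.5, 38.9 and 35.2 in the model and at 155, 158 and 139 with RES, and its Con and model libraries overlapped. CPT1A, the gate of mitochondrial fatty acid oxidation, lay at 103, 106 and 104 CPM in Con, at 182, 182 and 173 in the model and at 434, 397 and 401 with RES. PDK4, which inhibits pyruvate dehydrogenase, and ANGPTL4, which inhibits lipoprotein lipase, followed the same order as CPT1A, with log2 fold changes against Con of 1.37 and 1.30 in the model and 2.60 and 2.90 with RES. CPT1A, PDK4 and ANGPTL4 are also PPARα targets, and all 3 were higher with RES than in the model (adjusted p = 1.13e-12, 4.87e-10 and 1.84e-06). SERPINA7, which carries thyroid hormone in plasma, fell from 35.8, 29.3 and 25.6 CPM in Con to 1.21, 1.83 and 1.07 CPM with RES, while the model libraries at 25.6, 26.4 and 26 CPM overlapped Con. THRSP, SHBG, PCK1 and CYP7A1 had at most 4 counts in any library and were not tested. No promoter of the 12 genes of this list that had an entry held the thyroid hormone response element DR4 (AGGTCA repeated after any 4 bases, either strand) in the 250 bases before the start site. Because 0 of 11524 promoters of tested genes held these exact letters, the search could not set this list apart from other genes. It does not show that response elements are absent.

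The albumin gene family, serum carrier proteins made by hepatocytes, fell as a whole. All 4 members lie on chromosome 4 (GRCh38.p14, RefSeq): GC, the vitamin D-binding protein, at chr4:71741693-71805520, ALB at chr4:73404287-73421482, AFP at chr4:73436221-73456174 and AFM, the vitamin E-binding protein afamin, at chr4:73481745-73504001. AFP lay at 6364, 6672 and 6051 CPM in Con, at 3389.6, 3260.2 and 3395 in the model and at 87.7, 126 and 168 with RES. Each group lay apart from the others, and the log2 fold change of RES was −5.65 against Con (SE 0.17, adjusted p = 3.65e-18) and −4.72 against the model. AFM lay at 12.8, 9.91 and 10.4 CPM in Con, at 16.3, 15.9 and 16.6 in the model and at 0.485, 0.646 and 0.513 with RES, so that it was above Con in the model and below Con with RES. GC lay at 1989.8, 1841 and 1726 CPM in Con, at 1806, 1852 and 1966 in the model and at 143, 164 and 155 with RES. ALB lay at 39375, 43307 and 40258 CPM in Con, at 33619, 34276 and 33841 in the model and at 7424, 7411 and 7747 with RES, which on the log2 scale was −2.44 against Con (SE 0.09, adjusted p = 1.77e-16). Con and model overlapped for GC but not for ALB, and every RES library was below every other library for all 4 genes. Together the family took 4.51% to 4.83% of all counts in Con, 3.81% to 3.87% in the model and 0.821% to 0.869% with RES.

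Other secreted liver proteins were mostly lower as well, with exceptions in the coagulation list. Of 19 apolipoprotein and lipoprotein assembly genes tested, 15 were lower and 1 was higher with RES, with a median log2 fold change of −0.95. APOA1, the main protein of high-density lipoprotein, lay at 1128, 1021 and 921 CPM in Con and 161, 157 and 120.3 CPM with RES, and APOH, a phospholipid-binding glycoprotein, at 1589.7, 1594 and 1457 CPM and 286, 281 and 266 CPM. The hepatic lipase gene LIPC fell by 2.32 on the log2 scale. TM6SF2, which supports lipidation of very-low-density lipoprotein, was the 1 higher member (0.62, adjusted p = 0.0179), and it did not pass without Con replicate 2 (adjusted p = 0.0738), without Con replicate 3 (0.0566) or without RES replicate 2 (0.0857). Of 12 acute phase genes tested, 10 were lower and 1, LCN2, was higher, with a median of −1.85. TF, which encodes transferrin, lay at 5253, 9057 and 7941 CPM in Con, at 4592, 4276 and 4600.4 in the model and at 1239, 1157 and 1035 with RES, with Con replicate 1 the lowest of Con. The heme carrier hemopexin (HPX) lay at 28.7, 29.8 and 26.6 CPM in Con and 3.76, 3.18 and 2.75 CPM with RES. The hepatokine FGL1 was already lower in the model and fell further with RES (−0.81 and −2.80 against Con).

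Of 34 coagulation and complement genes tested, 24 were lower and 6 higher, with a median of −1.06. The terminal complement components C8B and C6 and the plasmin inhibitor SERPINF2 fell by 3.23, 3.13 and 2.98 on the log2 scale. C6 lay at 18.3, 13.4 and 16.2 CPM in Con, at 20.8, 21.7 and 26.2 in the model and at 1.57, 1.88 and 2.05 with RES, above Con in the model and below Con with RES. PLG, which encodes plasminogen, lay at 6.53, 1.91 and 1.62 CPM in Con and 0.283, 0.538 and 0.560 CPM with RES. Con replicate 1 was far above the other Con libraries, and the log2 fold change of PLG was −2.88 with it and −1.96 without it (adjusted p = 4.49e-05 and 0.000991). FGA, the fibrinogen alpha chain, moved the other way, from 232, 309.9 and 291 CPM in Con, with the model at 206, 209 and 210.4 CPM, to 779, 665 and 584 CPM with RES (1.28, SE 0.11, adjusted p = 5.52e-10). PROS1, the anticoagulant protein S, was also higher, at 67.9, 76.1 and 79.7 CPM in Con, at 99, 88 and 98.9 in the model and at 152, 172 and 164 with RES. F13B, the carrier subunit of factor XIII, and MBL2, the mannose-binding lectin, were DEGs in the same direction at low levels, with 7, 12 and 6 and 8, 3 and 3 counts in the Con libraries and 52, 62 and 68 and 36, 30 and 21 counts in the RES libraries. Without Con replicate 1 the log2 fold change of MBL2 moved from 2.31 to 2.93.

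**Figure D2:**
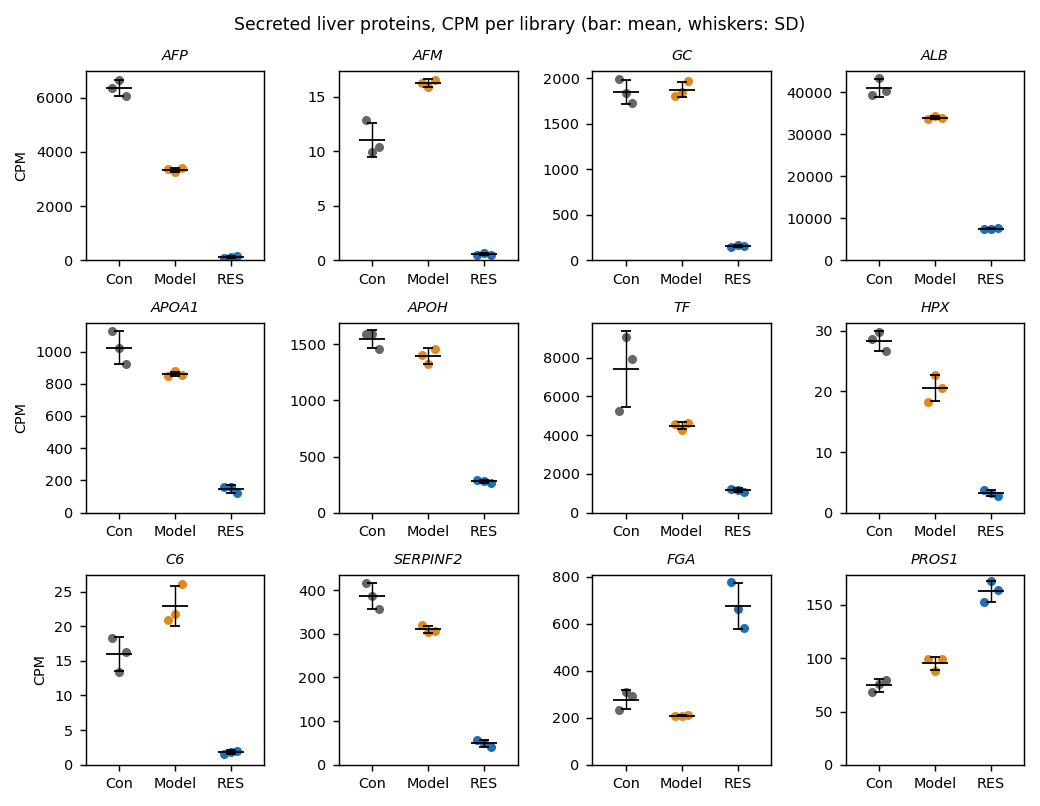
CPM of each library for 12 secreted liver proteins in Con, Model and RES, with the mean as a bar and the SD as whiskers, each panel on its own linear axis from 0. The 10 genes from AFP to SERPINF2 are lowest with RES, AFM and C6 are highest in the model, and FGA and PROS1 are highest with RES.

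Transcription factors that define hepatocytes were also mostly lower. Of 21 tested, 16 were lower and 3 higher with RES, 2 of the lower were DEGs, and the median was −0.65. The bile acid receptor NR1H4 (FXR) lay at 32.9, 39 and 36 CPM in Con, at 23.6, 20.8 and 24.2 in the model and at 5.41, 6.68 and 5.69 with RES, and CEBPA at 235, 234 and 253, 179, 147 and 168 and 76.7, 86.8 and 70.0 CPM. Both were already lower in the model and fell further with RES, without overlap between the groups. NR1I3, the xenobiotic sensor CAR, and TBX3 fell by 0.94 and 0.95 on the log2 scale, with Con replicate 1 of TBX3 inside the range of RES. CEBPB, CEBPD and HNF4G were the 3 higher members. CEBPB was highest with RES, at 86.4, 97.7 and 87.1 CPM against 77.9, 52.8 and 57 CPM in Con. CEBPD lay at 49.5, 24.5 and 26.9 CPM in Con, at 97, 89.6 and 86.9 in the model and at 46.4, 50.2 and 48.5 with RES, with Con replicate 1 inside the range of RES, and its log2 fold change of 0.52 became 0.91 without Con replicate 1 (adjusted p = 8.85e-07), 0.34 without Con replicate 2 (0.0878) and 0.38 without Con replicate 3 (0.0767).

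Cholesterol synthesis and uptake genes were lower with RES without exception among the 25 tested, with 18 DEGs, a median log2 fold change of −1.34 and no overlap between Con and RES libraries in any of them. In the model 23 of the 25 were already lower than Con (8.43% of all genes were higher and 9.12% lower there), with a median of −0.56, and 23 were lower with RES than in the model (24.4% of all genes were higher and 25.1% lower in that comparison). LSS, lanosterol synthase, lay at 863, 1056 and 1050.4 CPM in Con, at 555, 564 and 509 in the model and at 200.4, 197 and 235 with RES (RES against Con −2.23, SE 0.11, adjusted p = 1.14e-14). MVD, mevalonate diphosphate decarboxylase, lay at 489, 549.7 and 566, 262, 277 and 247 and 107, 103 and 134 CPM in the same order. In both genes the 3 groups stepped down without overlap, and mevalonate kinase (MVK) did the same (−0.88 in the model and −2.05 with RES against Con).

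Of the 25 cholesterol genes, 18 had a RefSeq promoter entry (GRCh38.p14, the 250 bases before the start site), and 15 of these (83.3%) held the NF-Y box CCAAT on either strand, against 34.8% of 11524 promoters of tested genes. The box was as common in 2 lists that were mostly higher with RES. It was in 19 of 22 promoters (86.4%) of endoplasmic reticulum chaperone genes and 28 of 39 (71.8%) of DNA replication and mitosis genes. Its share therefore does not follow the direction of the change. The sterol regulatory element TCACNCCAC was in 1 of the 18 (5.56%) and in 0.842% of the promoters of tested genes. The promoters of LSS (chr21:46228775-46229024, minus strand) and MVD (chr16:88663092-88663341, minus strand) are printed because these genes fell most among members that had an entry, with the NF-Y box or its reverse complement in capitals.
LSS: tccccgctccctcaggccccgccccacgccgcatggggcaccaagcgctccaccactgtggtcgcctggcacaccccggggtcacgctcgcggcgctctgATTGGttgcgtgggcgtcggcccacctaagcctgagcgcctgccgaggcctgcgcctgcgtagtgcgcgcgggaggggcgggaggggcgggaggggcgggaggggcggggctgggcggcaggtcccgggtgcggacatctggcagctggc
MVD: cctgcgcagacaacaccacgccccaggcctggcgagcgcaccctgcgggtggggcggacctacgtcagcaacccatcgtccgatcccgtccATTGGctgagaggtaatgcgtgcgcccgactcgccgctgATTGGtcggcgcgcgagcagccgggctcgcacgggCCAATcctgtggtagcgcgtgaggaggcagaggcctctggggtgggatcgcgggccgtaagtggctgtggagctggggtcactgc
LSS held 1 match and MVD held 3. A match describes these letters only.

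Fatty acid synthesis genes followed the same direction. Of 21 tested, 16 were lower and 2 higher with RES, 10 of the lower were DEGs, and the median was −0.73. The list counts TMEM97, which is not an enzyme of fatty acid synthesis and was among the lower DEGs (−2.37). FASN, fatty acid synthase, lay at 3871, 3690.1 and 3784 CPM in Con, at 2634, 2663 and 2339 in the model and at 1089, 1053 and 1101 with RES (−1.81 against Con, SE 0.13, adjusted p = 1.06e-11). SCD, the desaturase that makes oleate, lay at 6203, 7671 and 7442, 4346, 4744 and 4332 and 2209.6, 2279.7 and 2485 CPM in these groups. GPAM, which begins glycerolipid synthesis, fell from 43.8, 46.9 and 44.7 CPM in Con through 25.1, 25 and 24.5 CPM in the model to 7.75, 10.3 and 7.09 CPM with RES. In all of these the groups stepped down without overlap. ACSS2, which makes acetyl-CoA from acetate, lay at 189, 439.9 and 397 CPM in Con, at 67.1, 71.5 and 66.6 in the model and at 40.5, 41.1 and 47.7 with RES, and Con replicate 1 was at under 50% of the other Con libraries, so that the log2 fold change was −2.99 with it and −3.28 without it. The lipid droplet lipase gene PNPLA3 and SREBF1, the transcription factor of lipogenesis, fell by 2.25 and 1.49, and ACACA, acetyl-CoA carboxylase, by 0.73. The 2 higher members were ME1 and ACACB, the mitochondrial acetyl-CoA carboxylase, the latter at 0.46 and not past the threshold without RES replicate 2 (adjusted p = 0.0523).

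Fatty acid oxidation and PPARα target genes were divided. Of 23 tested, 14 were higher and 6 lower with RES than in Con, with a median of 0.32, against 11 higher and 2 lower in the model. Relative to the model, RES had 6 higher and 9 lower. CPT1A, PDK4, ANGPTL4 and the acyl-CoA dehydrogenase ACADL were the higher DEGs, of which ACADL did not pass with DESeq2 (adjusted p = 0.0680), without Con replicate 3 (0.0814) or without RES replicate 2 (0.0645). CREB3L3, a liver transcription factor induced by fasting, lay at 29.6, 17.6 and 18.3 CPM in Con, at 80.2, 65.4 and 82.6 in the model and at 22.4, 21.5 and 18.8 with RES. The RES libraries lay below all model libraries and within the range of Con. FABP1, the liver fatty acid-binding protein, lay at 1266, 927 and 890.3 CPM in Con, at 923, 904 and 881 in the model and at 313, 321 and 366 with RES, and PPARA itself fell by 0.52. VNN1, a pantetheinase and PPARα target, lay at 1.21, 1.55 and 0.595 CPM in Con, at 1.75, 3.34 and 2.82 in the model and at 0.444, 0.431 and 0.560 with RES, and its fall against Con did not pass without Con replicate 2 (adjusted p = 0.0896).

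**Figure D3:**
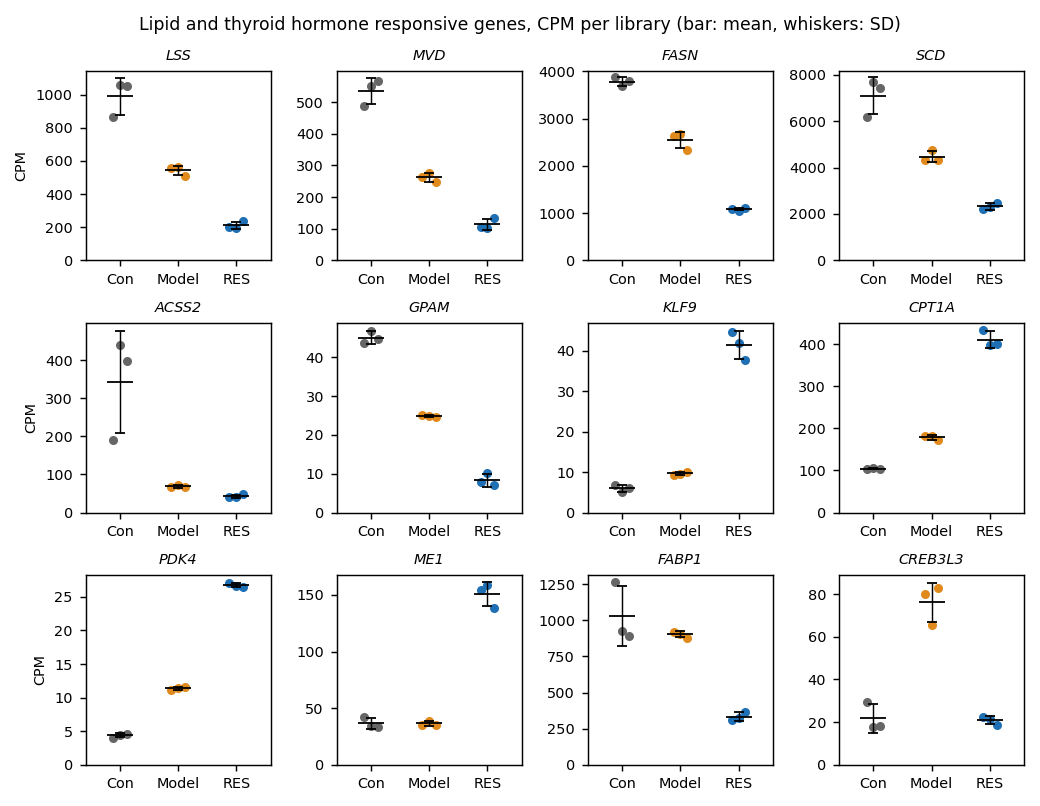
CPM of each library for 12 lipid and thyroid hormone responsive genes in Con, Model and RES, with the mean as a bar and the SD as whiskers, each panel on its own linear axis from 0. LSS, MVD, FASN, SCD and GPAM step down from Con to the model to RES, KLF9, CPT1A and PDK4 step up, CREB3L3 is highest in the model and FABP1 is lowest with RES.

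Lipid droplet genes moved in both directions, as did genes at large. PLIN2, the coat protein of hepatocyte lipid droplets, lay at 409, 398 and 386 CPM in Con, at 817, 893 and 829.5 in the model and at 821, 786 and 768 with RES. It was above Con in every library of both groups (log2 fold change 1.09 in the model and 0.99 with RES), and RES against the model was −0.10 (adjusted p = 0.325). PLIN5, PLIN1 and PLIN4 fell by 1.56, 1.20 and 0.91, while G0S2, the very long chain acyl-CoA synthetase SLC27A2 and the droplet fusion protein CIDEC were higher DEGs. CIDEC did not pass without Con replicate 3 (adjusted p = 0.0876) or without RES replicate 1 (0.168). CD36, the fatty acid translocase, lay at 2.95, 0.955 and 0.649 CPM in Con, at 1.81, 1.06 and 1.68 in the model and at 1.57, 1.18 and 1.87 with RES. Con replicate 1 was the highest of the 9 libraries, and the log2 fold change of 0.04 (SE 0.36, adjusted p = 0.926) became 0.96 without it (adjusted p = 0.0172). Of 18 list members tested, 6 were higher and 5 lower with RES, close to the shares over all genes tested (28.8% higher and 28.5% lower).

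Genes of cholesterol efflux and bile acids were mostly lower. Of 12 LXR and efflux genes tested, 10 were lower and 2 higher. The cholesterol exporter ABCA1 lay at 109, 121 and 123 CPM in Con, at 88.2, 84.4 and 79.7 in the model and at 41.4, 34.6 and 33.4 with RES. The sterol transporter ABCG8 lay at 11.8, 3.88 and 5.14 CPM in Con and 2.18, 1.56 and 1.31 CPM with RES. Con replicate 1 was the highest for ABCG8, whose log2 fold change was −2.02 with it and −1.41 without it (adjusted p = 0.000139), and for its partner ABCG5 the value of −0.99 became 0.02 (adjusted p = 0.970). ABCG5 also did not pass with the compared groups alone (adjusted p = 0.118) or without RES replicate 1 (0.0620), 2 (0.0774) or 3 (0.108). Of 17 bile acid genes tested, 12 were lower and 2 higher. The bile acid uptake transporter SLCO1B3 lay at 5.78, 4 and 3.25 CPM in Con, at 2.25, 2.73 and 2.11 in the model and at 0.242, 0.431 and 0.0933 with RES. SLCO1B1 held 23, 20 and 27 counts in Con and 3, 2 and 1 with RES, and both genes are close paralogs whose reads could have been split. The bile acid reductase AKR1D1 fell by 2.53, and SLC51A, a subunit of the bile acid exporter, rose by 0.72.

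Xenobiotic genes were lower in 15 of 26 tested and higher in 4. CYP2W1 lay at 24.8, 27.9 and 28.7 CPM in Con, at 30.9, 26.5 and 25.8 in the model and at 4.52, 5.33 and 4.71 with RES. The 4 higher genes were CYP1A1 and AHRR, targets of the aryl hydrocarbon receptor, UGT1A1, which conjugates bilirubin, and the drug exporter ABCB1. CYP1A1 lay at 10.7, 3.34 and 3.46 CPM in Con, at 11.9, 11.6 and 9.37 in the model and at 37.6, 28.1 and 17 with RES. Con replicate 1 reached the model's level, and without it the log2 fold change moved from 2.25 to 3.02. UGT1A1 lay at 1.04, 0.776 and 0.541 CPM in Con and 3.88, 5.33 and 3.55 CPM with RES and shares exons with the rest of the UGT1A locus. ABCB1 lay at 64.5, 49.4 and 53.4 CPM in Con, at 62.5, 53.8 and 59.4 in the model and at 135, 154 and 135 with RES.

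Amino acid and sugar metabolism genes contained some of the larger falls. Of 24 urea cycle and amino acid genes tested, 14 were lower and 5 higher. AGXT, the glyoxylate aminotransferase, lay at 50.7, 26.6 and 22.8 CPM in Con and 4.48, 3.55 and 1.68 CPM with RES, and its log2 fold change was −3.35 with Con replicate 1 and −2.91 without it. TDO2, which starts tryptophan breakdown, held 21, 3 and 1 counts in Con and 0, 1 and 1 with RES, and its fall did not pass without Con replicate 1 (−1.68, adjusted p = 0.189). Of 28 hypoxia and glycolysis genes tested, 10 were lower and 8 higher, near the shares over all genes tested (28.5% and 28.8%). Of these, 8 of the lower and none of the higher were DEGs, against 8.39% and 4.9% of all genes. PKLR, liver pyruvate kinase, lay at 90.5, 53.4 and 55.1 CPM in Con, at 44.9, 38.1 and 44.9 in the model and at 2.99, 3.93 and 2.1 with RES. Of 17 TXNIP, FOXO and insulin-responsive genes tested, 7 were higher and 7 lower. IGFBP1, a secreted IGF-binding protein that insulin represses, lay at 18.6, 13.5 and 13.2 CPM in Con, at 11.1, 9.07 and 9.26 in the model and at 134, 138 and 91.5 with RES (a log2 fold change of 3.0 against Con, SE 0.19, adjusted p = 2.35e-12). The glucose-responsive arrestins TXNIP and ARRDC4 were also higher. TXNIP lay at 7.28, 28.2 and 24 CPM in Con and 51.8, 73.1 and 50.1 CPM with RES, with Con replicate 1 far below the other Con libraries and a log2 fold change of 1.55 with it and 1.16 without it. The insulin receptor substrates IRS1 and IRS2 fell by 1.21 and 0.75.

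Stress response lists were mainly higher, each with a few members that were not. Of 35 genes of the ATF4 integrated stress response, 23 were higher and 6 lower with RES (median 0.40), whereas in the model none was higher and 15 were lower. ALDH1L2 lay at 0.751, 0.478 and 0.487 CPM in Con, at 0.713, 0.556 and 0.487 in the model and at 5.61, 6.84 and 6.3 with RES. GDF15, a stress hormone, STC2, a secreted glycoprotein, and SLC7A11, the cystine importer, rose by 1.30, 1.26 and 1.24, and STC2 was lower than Con in the model (−0.52, adjusted p = 0.000442). ATF4 itself, which is controlled largely at translation, lay at 924, 955 and 965 CPM in Con, at 781, 756 and 792 in the model and at 716, 759 and 702 with RES, below Con in both. Of 24 endoplasmic reticulum chaperone and unfolded protein response genes, 20 were higher and none was lower (median 0.35), led by the sensor ATF6 (1.05) and the cargo adaptor SEC24D (0.91). HSPA5, the chaperone BiP, lay at 1314, 1170.3 and 1183 CPM in Con, at 1764, 1734 and 1859.5 in the model and at 2044, 2264 and 2179 with RES. Of 20 heat shock genes, 11 were higher and 3 lower. HSPA6, an inducible member of the HSP70 family with close paralogs, held 1, 0 and 2 counts in Con and 33, 29 and 27 with RES, a ratio of 24.1 (7.97 to 119), while HSPB1 lay at 413, 331 and 336 CPM in Con and 142, 141 and 140.1 CPM with RES.

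NRF2 antioxidant genes were higher in 18 of 26 tested and lower in 2 (median 0.80), and 11 of the higher were DEGs. GPX2, a glutathione peroxidase, lay at 1.5, 0.716 and 0.541 CPM in Con, at 5.98, 5.45 and 4.44 in the model and at 5.69, 7.21 and 7.79 with RES. The model and RES libraries of GPX2 overlapped above Con, and its log2 fold change of RES against Con was 2.90 with Con replicate 1, the highest of Con, and 3.44 without it. NQO1, a quinone reductase, lay at 3.35, 3.22 and 2.11, 4.61, 4.51 and 5.52 and 10.9, 9.58 and 8.82 CPM in Con, the model and RES, stepping up without overlap. SRXN1, sulfiredoxin, lay at 5.32, 2.69 and 2.87 CPM in Con and 14.1, 15.1 and 9.98 CPM with RES, and its model libraries at 4.5, 3.34 and 3.79 CPM overlapped Con. Con replicate 1 was again the highest of Con, with a log2 fold change of SRXN1 of 1.85 with it and 2.23 without it.

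Of the metallothioneins, small zinc and copper-binding proteins encoded together on chromosome 16, MT2A, MT1E and MT1X were at or near 0 in Con and detected in every RES library. MT2A (chr16:56608584-56609497) held 1, 0 and 1 counts in Con, 13, 21 and 10 in the model and 338, 259 and 287 with RES, a ratio of RES to Con of 359 (99.0 to 2960). MT1E (chr16:56625781-56627112) was at 0 in the 3 Con libraries and held 15, 11 and 25 counts with RES. The ratio was 13.8 with Con set to a floor of 3 counts over the group, and the lower limit of the 95% exact interval was 10.8. MT1X (chr16:56682470-56684196) was also at 0 in Con and held 13, 11 and 13 counts with RES, a ratio of 10 against the same floor (lower limit 7.74). The genes of this family are near-identical copies whose reads could have been split. The zinc exporter SLC30A1, which zinc also induces, lay at 12.9, 19.6 and 18.1 CPM in Con, at 16.3, 18.6 and 16.4 in the model and at 55.2, 48.1 and 41.1 with RES, while the transporters SLC30A10 and SLC39A10 fell by 1.17 and 0.44. In all, 7 of 9 genes tested were higher and 2 lower. MT1A, MT1F, MT1G, MT1H and MT1M had at most 3 counts in any library and were not tested.

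The promoters of MT2A (chr16:56608334-56608583, plus strand) and MT1X (chr16:56682220-56682469, plus strand) are printed because these genes went from near 0 to detection in every RES library. Capitals mark the A form TGCACNC and the G form TGCGCNC of the metal response element on either strand (RefSeq, GRCh38.p14).
MT2A: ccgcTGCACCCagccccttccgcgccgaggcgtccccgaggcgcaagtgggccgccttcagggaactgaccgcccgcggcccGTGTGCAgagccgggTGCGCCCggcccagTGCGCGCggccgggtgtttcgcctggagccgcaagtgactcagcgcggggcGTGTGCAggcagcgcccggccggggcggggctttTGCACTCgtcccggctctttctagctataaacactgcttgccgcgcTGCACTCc
MT1X: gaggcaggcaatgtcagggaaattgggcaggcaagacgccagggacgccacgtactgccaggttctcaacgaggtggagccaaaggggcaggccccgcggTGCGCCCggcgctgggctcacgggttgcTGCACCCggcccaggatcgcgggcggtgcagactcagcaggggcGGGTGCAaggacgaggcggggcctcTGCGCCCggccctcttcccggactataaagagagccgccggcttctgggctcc
MT2A held 5 matches to the A form and 2 to the G form, MT1X held 2 of each, and none of these overlapped another. The A form was in 9.61% and the G form in 26.2% of the promoters of tested genes. Of the 7 promoters of this list, 3 (42.9%) held the A form and 2 (28.6%) the G form, so the share of the G form was near that of all tested genes.

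Chemokine, NF-κB and interferon genes were higher in 17 of 30 tested with RES and lower in none, with a median log2 fold change of 0.71 and 10 DEGs, and the same counts of 17 and 0 were seen in the model. Between RES and the model, 7 were higher and 7 lower. The CXC chemokines that were DEGs of the model, among them neutrophil attractants, divided into genes not past the threshold between RES and the model and genes lower with RES than in the model. CXCL8 lay at 70.3, 43.6 and 37.4 CPM in Con, at 212, 303 and 229.7 in the model and at 231, 195 and 297 with RES, a log2 fold change of RES against Con of 2.26 with Con replicate 1 and 2.57 without it. CXCL2 lay at 9.02, 7.11 and 9.46, 40.7, 39.7 and 45.1 and 45.7, 46 and 46.3 CPM in the same groups, and for both the RES libraries were above all Con libraries and RES against the model was −0.04 and 0.14 (adjusted p = 0.915 and 0.691). CXCL1 lay at 30.8, 21.7 and 22.3 CPM in Con, at 95.6, 123 and 108 in the model and at 51, 42.3 and 58.6 with RES, with RES between the other groups. CXCL6 lay at 2.66, 2.99 and 2.6 CPM in Con, at 11.5, 15.3 and 12.5 in the model and at 3.59, 3.02 and 4.66 with RES. For CXCL6 the RES libraries lay far below the model (−1.79, adjusted p = 1.71e-07) and their difference from Con did not pass (0.46, adjusted p = 0.135), although it did without a filter on low counts (adjusted p = 0.0302). CCL20, a lymphocyte attractant, lay at 103, 75.9 and 83.1 CPM in Con, at 264, 300.0 and 317 in the model and at 154, 143 and 162 with RES, in the order of CXCL1. BIRC3, an inhibitor of apoptosis and an NF-κB target, was the 1 DEG of the model in this list that was higher still with RES, at 4.28, 3.46 and 4.81 CPM in Con, at 12.9, 16 and 16.1 in the model and at 22.1, 16.7 and 25.1 with RES (0.51 against the model, adjusted p = 0.0477).

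The promoters of CXCL2 (chr4:74099196-74099445, minus strand) and CXCL3 (chr4:74038690-74038939, minus strand) are printed because both chemokines were above Con with RES and did not pass the threshold against the model. For CXCL3 the log2 fold change against Con was 2.21 in the model and 1.90 with RES, and RES against the model was −0.32. Capitals mark matches to the κB site, GGGA and TTCC with any 2 bases between them, on either strand (RefSeq, GRCh38.p14).
CXCL2: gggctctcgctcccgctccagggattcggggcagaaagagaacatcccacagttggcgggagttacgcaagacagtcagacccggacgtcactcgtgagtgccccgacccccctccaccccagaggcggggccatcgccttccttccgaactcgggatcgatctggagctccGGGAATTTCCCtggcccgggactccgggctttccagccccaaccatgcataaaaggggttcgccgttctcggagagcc
CXCL3: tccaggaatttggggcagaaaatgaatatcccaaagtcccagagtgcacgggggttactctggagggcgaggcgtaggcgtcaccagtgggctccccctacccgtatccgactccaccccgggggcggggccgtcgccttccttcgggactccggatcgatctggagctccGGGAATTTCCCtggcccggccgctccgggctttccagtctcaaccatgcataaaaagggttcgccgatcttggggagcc
In each the letters GGGAATTTCC match on both strands with a shift of 1 base, so that the matches overlap. CXCL1, CXCL5 and CXCL6 held the same letters, although CXCL6 and CXCL1 were lower with RES than in the model. Of 25 promoters of this list, 11 (44.0%) held the site, against 1.39% of the promoters of tested genes.

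Immediate early genes, induced within minutes of a stimulus, were higher in 17 of 30 tested with RES and lower in 2, and in the model in 16 and 2. EGR2, a zinc finger transcription factor, lay at 3.93, 2.45 and 2.22 CPM in Con, at 6.74, 5.95 and 8.5 in the model and at 5.65, 6.73 and 4.38 with RES. Every RES library was above every Con library, with Con replicate 1 closest, and the log2 fold change of EGR2 against Con was 0.96 with that library and 1.25, past the DEG threshold, without it. IER3 lay at 9.71, 5.85 and 6.44 CPM in Con, at 14, 16.2 and 17.8 in the model and at 18.9, 13.8 and 16.3 with RES, with the model and RES overlapping. The phosphatase DUSP4 went the other way, from 12.5, 19.9 and 21.5 CPM in Con to 4.81, 4.04 and 4.66 CPM with RES. Of 14 YAP targets tested, 3 were higher and 5 lower with RES, near the shares over all genes tested (28.8% and 28.5%). In the model 6 were higher and none was lower, where 8.43% of all genes were higher and 9.12% lower. CCN2, a matricellular growth factor, lay at 331, 325 and 330.1 CPM in Con, at 745, 773 and 807 in the model and at 547, 536 and 569 with RES, between the other groups. ANKRD1 lay at 29.4, 28 and 26.8 CPM in Con, at 41.5, 61.9 and 42.4 in the model and at 13.9, 11.2 and 17.1 with RES, so that it was above Con in the model and below Con with RES. Of 23 BMP and TGFβ genes tested, 16 were lower and 2 higher with RES. BMP2 lay at 56.1, 56.9 and 53.8 CPM in Con, at 48.1, 68.1 and 50.9 in the model and at 15.9, 15.3 and 14.1 with RES, and the hepatokine INHBE at 393, 408 and 398, 315, 311 and 317 and 142, 148 and 140.1 CPM. BMP6, which controls iron metabolism, rose at low levels (1, 4 and 7 counts in Con and 27, 17 and 32 with RES).

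Growth and protein turnover lists shifted upward by small amounts. Of 48 DNA replication and mitosis genes, 31 were higher and 4 lower with RES (median 0.34), and 23 were higher and 1 lower in the model. The mitotic checkpoint kinase BUB1 lay at 37.3, 35.8 and 34.9 CPM in Con, at 48.7, 44.1 and 48.2 in the model and at 81.4, 81.5 and 85.6 with RES, in steps without overlap. The lower members named were CDT1, MCM5, E2F1 and MCM4, of DNA replication and its control, with log2 fold changes of −0.67, −0.35, −0.26 and −0.24, and E2F1 did not pass without Con replicate 3 (adjusted p = 0.0643). CDKN1C, a cyclin-dependent kinase inhibitor, fell from 174, 213 and 214 CPM in Con to 33.5, 31.6 and 30.9 CPM with RES, while CDKN1A, the p53 target p21, rose from 24.8, 23.6 and 23 CPM to 53.7, 52.3 and 35.1 CPM. Ribosome biogenesis genes were higher in 24 of 31 and lower in none (median 0.40), proteasome subunits higher in 23 of 31 and lower in none (median 0.29), and respiratory chain genes higher in 16 of 33 and lower in 2 (median 0.19). The nucleolar factor RRP12 lay at 34.9, 23.7 and 25.6 CPM in Con and 49.7, 47.4 and 47.6 CPM with RES, the proteasome subunit PSMA1 at 20.5, 19.9 and 18.6 and 33.2, 33.1 and 31.8 CPM, and the cytochrome oxidase subunit COX7B at 44.6, 46.5 and 46.1 and 64.6, 70.0 and 70.7 CPM. In each of these the RES libraries lay above all Con libraries. None of the ribosome biogenesis, proteasome and respiratory chain genes was a DEG.

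**Figure D4:**
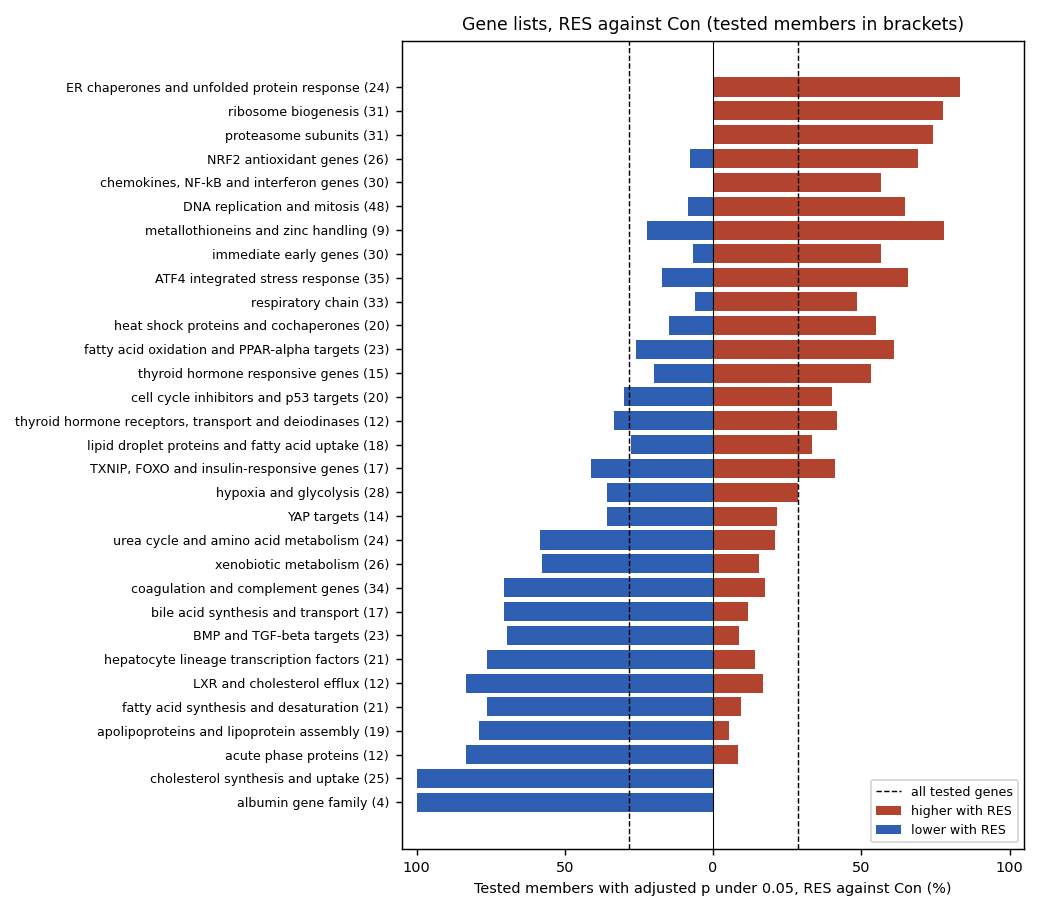
Share of the tested members of each gene list with an adjusted p under 0.05 between RES and Con, higher to the right (red) and lower to the left (blue), with the number tested in brackets and dashed lines at the shares over all genes tested (28.8% and 28.5%). In cholesterol synthesis and the albumin family all members tested were lower, and the ER chaperone, ribosome biogenesis, proteasome and chemokine lists have no lower member.

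To ask which changes moved toward or away from the untreated state, each DEG was placed by its adjusted p and sign in all 3 contrasts. The contrasts share libraries, so that the counts describe positions and no overlap was tested. Of the 284 DEGs of the model against Con, 109 (38.4%) were kept, which means past the threshold against Con in the same direction with RES and not past it between RES and the model. A further 85 (29.9%) were carried further from Con. A total of 46 (16.2%) were returned, that is past the threshold against the model in the opposite direction and not past it against Con, 24 (8.45%) were partly returned and 9 (3.17%) crossed over to the other side of Con, leaving 11 in none of these. These positions rest on thresholds, so returned and kept do not mean equal to Con or to the model. The log2 fold change against Con reached 1.54 (TCP11) and −1.70 (A4GNT) among returned genes. Among kept genes, RES against the model reached −1.65 (PLA2G3). TCP11, A4GNT and PLA2G3 were picked with their values in view. Of all 284, 179 were higher than Con in the model, as were 40 of the 46 returned genes and 40 of the 85 carried further, and these shares were not tested against each other. Without Con replicate 1 the numbers were 134 kept, 117 carried further, 69 returned, 40 partly returned and 19 crossed over.

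Among the returned genes were CREB3L3 and CXCL6, described above, UGT3A1, a glycosyltransferase, and GFRA3, a neurotrophic factor receptor. UGT3A1 lay at 1.85, 1.25 and 1.62 CPM in Con, at 5.32, 4.34 and 5.14 in the model and at 1.37, 1.02 and 1.49 with RES, its RES libraries overlapping Con and lying below the model. The partly returned genes included the epithelial transcription factor EHF, at 3.93, 2.45 and 3.19 CPM in Con, at 23.1, 20.4 and 25.7 in the model and at 8.88, 8.13 and 12.7 with RES, lysozyme (LYZ), at 3.64, 2.87 and 2.97, 17.4, 12.4 and 18 and 5.65, 6.62 and 5.97 CPM, and the ribonuclease ZC3H12A (1.60 in the model and 1.19 with RES). In all of them RES lay between Con and the model. The kept genes included GPX2, CXCL2, CXCL8 and, among the genes lower than Con, the RING finger gene RNF223. Of the 9 genes that crossed over, ALDH8A1, an enzyme of tryptophan catabolism, lay at 13.9, 6.99 and 8.17 CPM in Con, at 26.5, 24.9 and 26.3 in the model and at 1.9, 2.1 and 3.45 with RES. SCUBE3, a secreted glycoprotein, lay at 3.99, 6.39 and 6.17, 12.2, 13.7 and 11.9 and 1.7, 1.56 and 2.24 CPM in the same pattern. LAMP3, a lysosomal membrane protein, crossed in the other direction, from 4.45, 5.55 and 5.3 CPM in Con, with the model at 2.19, 2.17 and 2.76 CPM, to 28.9, 31.1 and 34.2 CPM with RES. MMP19 and VLDLR-AS1 were also placed here, but their difference from Con did not hold in every setting. For MMP19 the log2 fold change of −0.86 became −0.22 without Con replicate 1 (adjusted p = 0.501), and it did not pass without RES replicate 3 (0.0549) or with the compared groups alone (0.0721). For VLDLR-AS1 it was 0.74 and 0.70 (adjusted p = 0.0564 without Con replicate 1), and it did not pass without Con replicate 2 (0.0773), RES replicate 2 (0.0813) or RES replicate 3 (0.0909), nor with DESeq2 (0.0515).

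Of the 10 chemokine, NF-κB and interferon genes that were DEGs of the model, CXCL6 and TNFAIP3 were returned, CXCL1, CXCL10 and CCL20 partly returned, CXCL2, CXCL3, CXCL5 and CXCL8 kept and BIRC3 carried further, where TNFAIP3, CXCL5 and CXCL10 were picked with their values in view. The fatty acid synthesis list held 4 model DEGs, ACLY, ACSS2, TMEM97 and LPIN1, of which TMEM97 is not an enzyme of fatty acid synthesis. ACLY, ACSS2 and TMEM97 were carried further and LPIN1, a phosphatidate phosphatase, was kept. ACLY and LPIN1 were also picked with their values in view. None of the 4 was returned or partly returned.

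**Figure D5:**
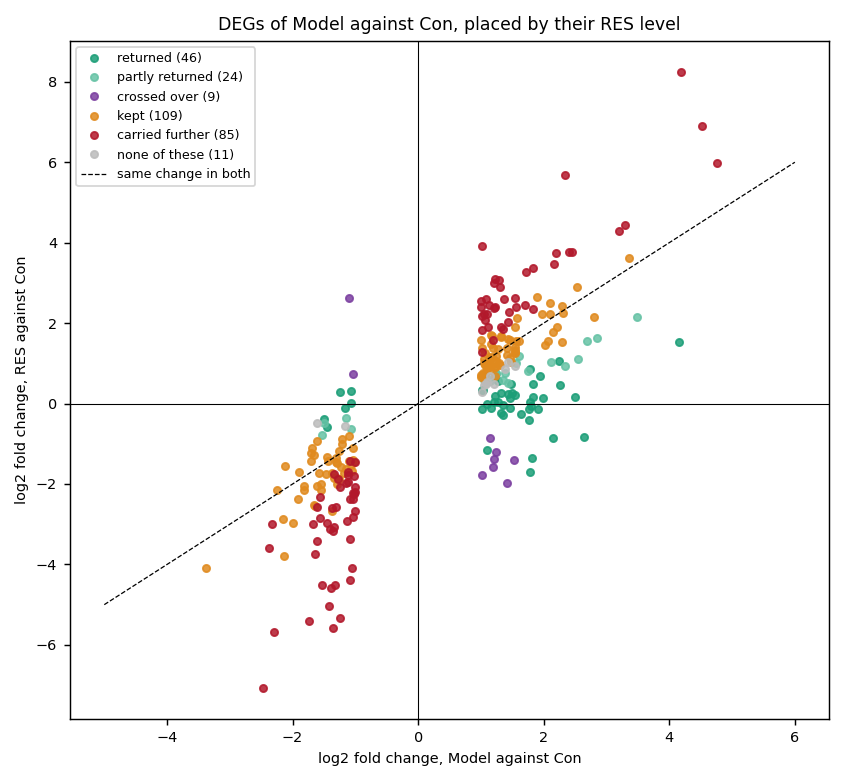
Log2 fold change of the 284 DEGs of the model, against Con in the model (horizontal axis) and with RES (vertical axis), coloured by position, with 46 returned, 24 partly returned, 9 crossed over, 109 kept, 85 carried further and 11 in none of these. Both axes use the same 3 Con libraries, so the spread of the points along the diagonal is not a test.

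Seen from the 1934 DEGs of RES against Con, 1082 (55.9%) were changed with RES but not in the model, which means not past the threshold in the model and past it between RES and the model in the same direction. Another 535 (27.7%) carried a change of the model further. A further 115 (5.95%) moved with the model, past the threshold there in the same direction and not past it between RES and the model. The rest were 7 (0.362%) partly returned, 46 (2.38%) opposite to the model and 149 (7.7%) in none of these. GC, APOA1, APOH, SERPINA7, ME1, SLC30A1, ALDH1L2, UNC5B, NIBAN1 and LINC02532 were among the genes placed in the first of these classes. CYP3A7, AFP, LCN2, MT2A, G0S2, KLF9, CPT1A, LSS, MVD and FASN were among those carried further. The 46 genes opposite to the model were 39 lower and 7 higher than Con with RES. Among them, AFM, C6 and the antimicrobial peptide LEAP2 were above Con in the model and below it with RES, with LEAP2 at 10.8, 8.66 and 7.09 CPM in Con, at 13.7, 13.4 and 13.6 in the model and at 1.37, 1.45 and 1.17 with RES, and IGFBP1 was below Con in the model and above it with RES.

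For genes on which the study itself centred, RES against Con gave values in both directions. Of 14 tested, 7 were lower, among them FASN, FABP1, SCD, SREBF1, ACACA and DGAT2, and CPT1A, PLIN2, EGR2, CCN2, NR4A1 and ACSL1 were the 6 higher, while CD36 did not pass. DGAT2, which completes triglyceride synthesis, lay at 5.14, 3.64 and 4.06 CPM in Con and 3.35, 3.39 and 2.8 CPM with RES (−0.43, adjusted p = 0.0286), and did not pass with DESeq2 (0.0541), with the compared groups alone (0.0538), without a filter on low counts (0.05), without Con replicate 1 (−0.28, 0.182) or without RES replicate 3 (0.117). ACSL1, which activates fatty acids, lay at 47.3, 41.9 and 38.9 CPM in Con, at 44, 57.2 and 46.5 in the model and at 64, 64.6 and 62.4 with RES. NR4A1, an orphan nuclear receptor, lay at 36.5, 30.8 and 30.6, 69.7, 66.4 and 65.4 and 54.6, 43.8 and 48.9 CPM in these groups, with RES between Con and the model. CCL2, TNF, IL6 and IL1B had at most 5 counts in any library and were not tested. The study's choice of these genes rests partly on libraries of this series, so their directions are not independent evidence.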

How the data were processed

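Polyadenylated RNA of Hep3B cells was sequenced in 18 libraries. The authors deposited raw read counts per gene symbol in a single table, whole numbers without normalization, and the submitters' processing notes name STAR, featureCounts, DESeq2 and the GRCh38 build. According to the study's methods the reads were trimmed with fastp, the annotation was from GENCODE and all libraries came from 1 sequencing run. Whether counting used the strand or reads with several matches is not given in the sources used here. The table held 36684 symbols, of which 24090 had a count and 14557 passed filterByExpr (minimum count 10, minimum total 15) and were tested. Counts were normalized by TMM and fitted in all 18 libraries with 1 term per group by edgeR 4.0.16 (quasi-likelihood test, R 4.3.3, prior count 0.125), with limma 3.58.1 loaded by it, and the contrasts RES against Con, model against Con and RES against model were adjusted by the Benjamini-Hochberg method over all genes tested. The threshold for DEGs was an adjusted p of 0.05 together with a log2 fold change beyond 1 in either direction. On simulated counts with 200 changed genes of 14557, edgeR recovered 199 and made 0 false calls in RES against Con. These genes lay above 1 CPM in Con and changed by the same fold, up and down in equal number. Their spread was estimated from these data. The simulation therefore does not give the error rate for smaller changes, fewer counts or the excess of lower genes seen here.

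Named genes were the 12 largest rises and falls whose mean reached 1 CPM and whose groups did not overlap, up to 4 rises and 4 falls of each list and its defining members, and up to 5 genes of each position class. Members and lists were chosen with earlier results of these data known. Alternatives were DESeq2 1.42.0, fits of the compared groups only, RLE factors, other filters, a replicate block, other thresholds, a prior count of 2 and leaving out each library. Ratios of low counts carry 95% exact intervals that cover counting error only, and a gene at 0 in a group was given a floor of 3 counts. Promoters were the 250 bases before the start site, 1 per symbol, from RefSeq (GRCh38.p14), which listed 14463 of the 14557 tested symbols (99.4%). No column of the table belonged to a sample of another series. Some members of the lists are counted but not reported here by name.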

Additional observations from a re-analysis of the deposited data

How the results depend on the processing

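The depth of these libraries limits genes with few counts: 130 of the 1934 DEGs of RES against Con rested on 9 counts or fewer in a group, and the fitted fold change of such genes depends on the prior count. Under DESeq2 there were 2040 DEGs (1853 of them shared with the 1934), with the compared groups alone 1779, with RLE factors 1935, without a filter on low counts 2247, with at least 10 counts in every library 1299 and with a prior count of 2 1824. Without a fold change threshold the counts of RES against Con, model against Con and RES against model were 8341, 2555 and 7194, and with glmTreat, which tests against a log2 fold change of 1, they were 954, 24 and 594. With at least 10 counts in every library, model against Con gave 146 and RES against model 925. In these settings fewer genes enter the test or the threshold itself differs.

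Leaving out 1 library at a time gave 1948 to 2034 DEGs of RES against Con, 216 to 396 of model against Con and 1417 to 1505 of RES against model. The genes changed with RES but not in the model then numbered 1039 to 1261, those carried further 385 to 599 and those moving with the model 82 to 147. Those partly returned numbered 3 to 11, those opposite to the model 32 to 66 and those in none of these 172 to 275. Of the DEGs of the model, 79 to 134 were kept, 63 to 117 carried further, 39 to 69 returned, 14 to 40 partly returned, 4 to 19 crossed over and 4 to 26 were in none of these. Under DESeq2, 290 DEGs of RES and 18 of the model were in none of the positions. The highest number of DEGs of the model, 396, came without Con replicate 1, and the cause was not tested.

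Of the 250 named genes, 243 passed the threshold. A call changed for 122 of them with glmTreat and for 25 in another alternative, of which 24 changed when a library was left out and 8 in an alternative that left out none. For CXCL6 the difference from Con passed without a filter on low counts (adjusted p = 0.0302 by edgeR) and it was the 1 gene whose call changed in no setting that left out a library. Leaving out 1 library moved the fold change of 19 named genes by over 1.5-fold, and their values are given on the log2 scale. Beside those given above these include genes with few counts in a group, LCN2 (5.99, and 6.86 without Con replicate 2), HSPA6 (4.44, and 5.26 without Con replicate 3), BMP6 (2.33, and 2.94 without Con replicate 3), EDNRB (−5.02, and −4.38 without RES replicate 1), PPP1R1A (−5.42, and −6.77 without RES replicate 1), SCN2B (−5.68, and −6.42 without RES replicate 1) and TDO2 (−3.68, and −3.09 without RES replicate 1). The log2 fold change of ABCG5 ranged from −1.34 to 0.019 when 1 library was left out, and its direction turned without Con replicate 1 (adjusted p = 0.97 by edgeR). Replicate numbers of RES and Con did not pair the libraries, since the correlations of same-numbered deviations were 0.0195, −0.0538 and 0.043, and not every library correlated best with its own number. With the replicate number as a block, RES against Con gave 1937 DEGs, 1923 of them shared.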
